A study of Mus musculus with 4 samples.

Results

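The 37 genes described here encode subunits of the receptors for glutamate and for gamma-aminobutyric acid (GABA), the main excitatory and the main inhibitory transmitter of the central nervous system. They were chosen by symbol, as the probes whose gene name is one of these subunits, and make up 37 of 37074 gene names and 91 of 56605 probes on the array. There are 4 AMPA, 5 kainate, 7 NMDA, 1 delta and 6 metabotropic glutamate receptor genes, 12 GABA-A subunit genes and 2 GABA-B subunit genes. Other subunits of these families are not analysed here.

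Expression was measured on Agilent arrays in 1 colour (Cy3) in transgenic (Tg) and wild-type (WT) mice aged 24 weeks, all with a strain background of C57BL/6, 129 and C3H. The transgenic animals are called MSA Tg mice. MSA is the usual abbreviation of multiple system atrophy, a disease with protein deposits in oligodendrocytes. The sample titles carry the prefix PLP, which the labels do not spell out, and the labels name neither the transgene product nor the cells in which it is made. The 4 groups are brainstem/cerebellum (brainstem and cerebellum in 1 sample) of transgenic mice, brainstem/cerebellum of wild-type mice, spinal cord of transgenic mice and spinal cord of wild-type mice, each with 1 array. The labels leave unsaid if 1 animal or several gave each sample. With 1 array per group no difference has a replicate check and no p-value is given. The study asked how expression in the transgenic mice differs from that in wild-type mice in each tissue.

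AMPA, kainate and NMDA receptors are glutamate-gated ion channels of 4 subunits each, and the subunits that a neuron makes set the speed, calcium flow and block of the channel. The metabotropic glutamate receptors and the GABA-B receptor act through G proteins instead. GABA-A receptors are chloride channels of 5 subunits. Those with the alpha 6 and delta subunits, which cerebellar granule cells make, lie outside synapses and carry a steady inhibitory current, and the same granule cells make the NMDA subunit GluN2C in the adult.

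Levels are given as scaled log2 signals, the log2 signal of a probe minus that of the 75th percentile of its array, so 0 is the signal of that percentile and a step of 1 is 2-fold. A gene with several probes is given by its brightest. A gene counts as measured in a comparison where both arrays read that probe well above background, and it is called where the arrays differ by at least 2-fold. Repeated spots of the same probe on an array gave a technical SD of a difference between 2 spots of 0.09 for the brightest and 0.39 for the dimmest probes. The repeated probes include spike-in controls. For scaled levels from -4 to 2 the SD rests on few of them, with 11, 13 and 28 pairs of a probe and an array by rising level. This SD covers spot error alone and neither animals nor hybridisations. Probes differ in their binding, so values are compared between arrays for the same probe and not between genes.

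Of the non-control spots, between 59.2% and 64% were well above background on each array, and none was saturated. The wild-type spinal cord array lay on a slide of its own and had the highest signal at the 75th percentile, 685.7, against 414 to 462.8 on the other 3 arrays, which lay on the same slide. The spinal cord genotype comparison is thus also one between slides, and these cannot be told apart; the tissue comparison in wild-type mice also crosses slides. The genotype comparison in brainstem/cerebellum and the tissue comparison in transgenic mice each lie within 1 slide. The 4 comparisons share arrays, so a high value on the wild-type spinal cord array enters both its genotype and its tissue comparison. Markers followed the tissue labels: 10 of 10 Hox genes of the cord were well above background on both spinal cord arrays, with summed levels (linear, in units of the 75th percentile) of 24.9 and 38.9 against 0.503 and 0.435 in brainstem/cerebellum. The 7 Purkinje cell markers summed to 378 and 367 in brainstem/cerebellum and to 41.7 and 71.7 in spinal cord. Of 7 forebrain markers, 5 and 4 were well above background in Tg and WT brainstem/cerebellum, with summed levels of 11.6 and 9.996. On each spinal cord array 4 of them were, with sums of 2.79 and 5.69.

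In brainstem/cerebellum no receptor subunit differed by 2-fold between genotypes. Of 36 measured subunits 0 were higher and 0 were lower, where 2.5% of all gene names measured were higher and 0.279% were lower in transgenic tissue. The subunits' median difference, transgenic minus wild type, was -0.16, that of all gene names was -0.04, and single subunits ranged from -0.70 to 0.36. There 24 of the 36 (66.7%) lay below 0, as did 56.2% of all gene names. In spinal cord 7 of 35 measured subunits were lower in transgenic tissue and 0 were higher. The background there was 7.83% lower and 7.82% higher. The 7 were Gabra4, Grin3b, Grin2c, Grin3a, Grm8, Grm3 and Gabrb2. The median difference was -0.61 over the subunits and -0.05 over all gene names, and 29 of the 35 subunits (82.9%) lay below 0, as did 53.8% of all gene names. Of 23 glutamate receptor genes 5 were lower, and of 12 measured GABA receptor genes 2. The family medians in spinal cord were -0.43 for AMPA, -0.50 for kainate, -0.81 for NMDA, -0.61 for metabotropic, -0.55 for GABA-A and -0.39 for GABA-B receptor genes. In spinal cord 24 of 35 subunits differed by over 2 technical SDs, 23 of them lower, where 60.8% of all gene names did and 34% were lower by that much. In brainstem/cerebellum 13 of 36 did, 10 of them lower, beside 29.3% and 16.7% of all gene names. In tissue that holds many cell types, fewer cells of a type and less RNA per cell cannot be told apart.

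**Figure D1:**
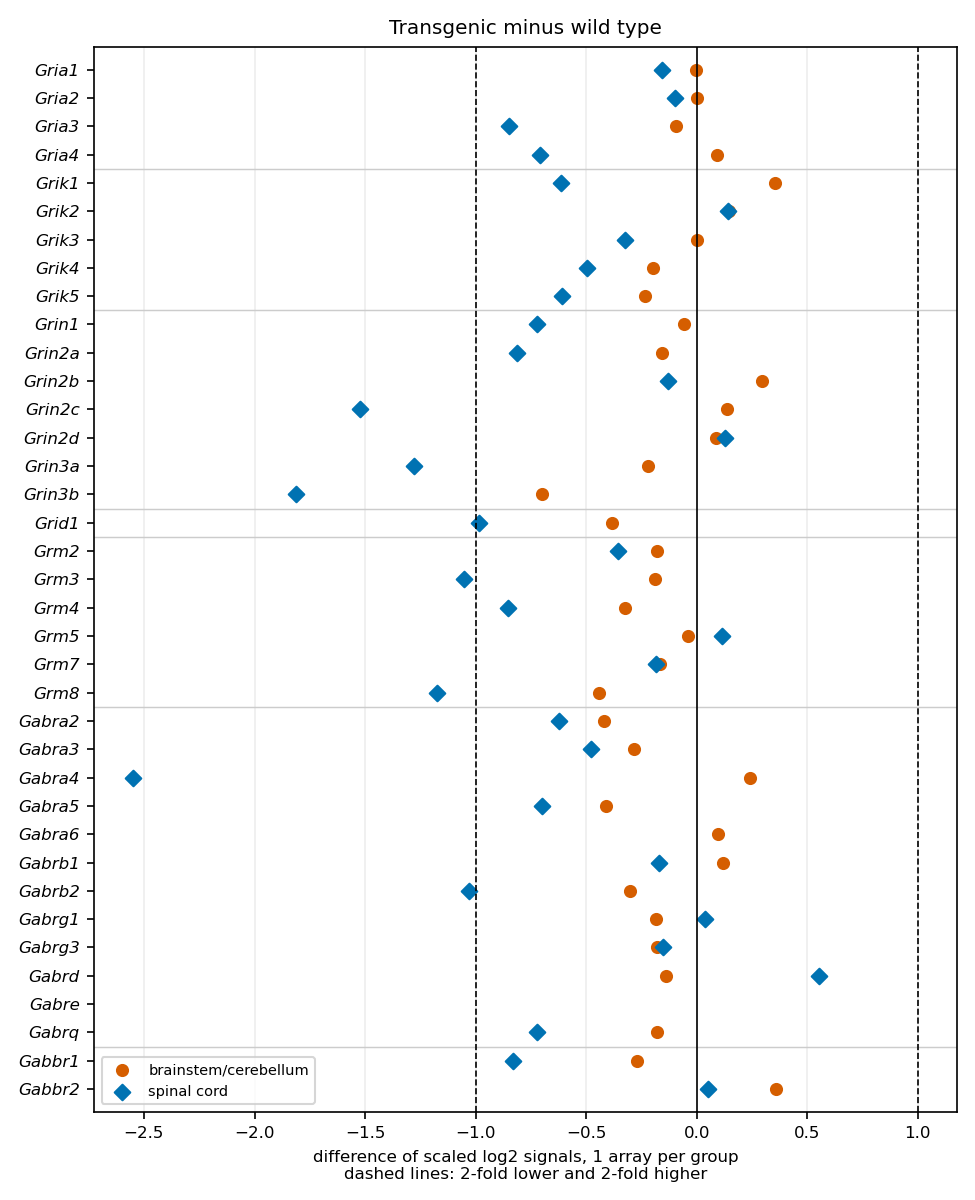
Transgenic minus wild type for each measured receptor subunit, as the difference of scaled log2 signals (x axis), in brainstem/cerebellum (orange circles) and spinal cord (blue diamonds), with 1 array per group and dashed lines at a 2-fold difference. All brainstem/cerebellum values lie between -0.70 and 0.36, and 7 spinal cord values lie beyond the line for 2-fold lower.

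The scaling moves these values together. With each array scaled on its spike-in control probes (7 measured, for RNAs added during labelling) the median of all gene names in spinal cord moved from -0.05 to -0.42 and that of the subunits from -0.61 to -0.98. The split over all gene names became 4.72% higher and 17.4% lower, and 16 subunits were at least 2-fold lower. In the transgenic tissue comparison the same scaling gave 5.22% higher and 13% lower, with the median of all gene names at -0.37. Scaling on the median gave 1.73% higher and 0.67% lower in brainstem/cerebellum, where quantile normalization gave 2.05% and 0.52%. In the wild-type tissue comparison scaling on the median gave 6.4% higher and 5.42% lower.

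**Figure D2:**
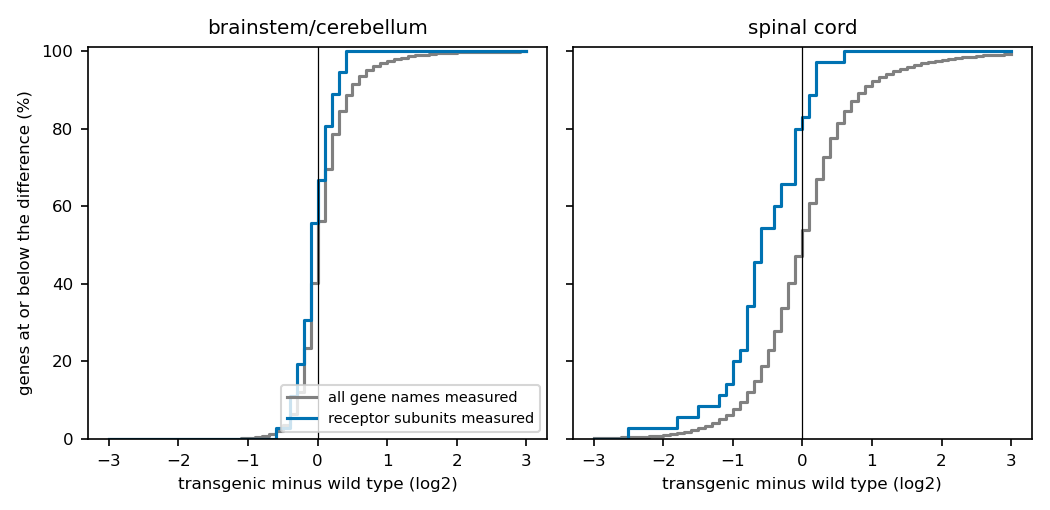
Cumulative share of genes (y axis, percent) at or below a given transgenic minus wild type difference (x axis, log2), for all gene names measured (grey) and the measured receptor subunits (blue), in brainstem/cerebellum (left) and spinal cord (right). In spinal cord 54.3% of the subunits and 23% of all gene names lie at or below -0.5, while in brainstem/cerebellum 2.78% and 3.67% do, and 55.6% and 40.1% lie at or below -0.1.

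Between tissues, the largest differences were those of subunits known from cerebellar granule cells. In wild-type mice 6 of 35 measured subunits were lower in spinal cord than in brainstem/cerebellum, with 4.19% of all gene names lower, and 2 were higher, with 8.09% higher. In transgenic mice 10 of 35 were lower, with 6.1% of all gene names lower, and 0 were higher, with 9.07% higher. The median tissue difference was -0.04 in wild-type and -0.77 in transgenic mice, against 0.01 and -0.02 over all gene names. The wild-type median was 0.02 with spike-in scaling.

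Gabra6, the alpha 6 subunit of GABA-A receptors, stood at 4.01 in Tg and 3.92 in WT brainstem/cerebellum and was not well above background on either spinal cord array, at -7.62 and -8.01. It was thus at least 828-fold higher in brainstem/cerebellum than in spinal cord in wild-type mice and at least 636-fold higher in transgenic mice. For these bounds the dim array was given the lowest signal that was well above background there, or the reading of the probe itself where that was higher. Gabrd, the delta subunit that pairs with alpha 6, read 2.94 and 3.07 in Tg and WT brainstem/cerebellum and -2.30 and -2.85 in spinal cord, a difference of 60.9-fold in wild-type and 37.7-fold in transgenic mice. Grin2c, which encodes GluN2C, read 3.15 and 3.01 in brainstem/cerebellum and -1.51 and 0.01 in spinal cord. All 3 were picked here for the size of this gap. The 8 granule cell markers moved the same way: 6 of 7 measured were lower in wild-type and 7 of 7 in transgenic spinal cord, and their summed level was 135 and 139 in transgenic and wild-type brainstem/cerebellum and 17.4 and 20.6 in spinal cord. Their part in the receptor values was not tested.

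The start regions of Gabra6 and Grin2c, the genes with the largest and the third largest tissue difference, are shown from RefSeq (build GRCm38.p6), each as a window of 300 bases around the gene start. Of the 37 subunits, 27 matched the promoter table, with 34 promoters. Capitals mark TTGGC, the short site of the nuclear factor I family, or GGGCGG, the GC box, on either strand; matches of the GC box may overlap each other.
Gabra6, chr11:42321023-42321322, minus strand: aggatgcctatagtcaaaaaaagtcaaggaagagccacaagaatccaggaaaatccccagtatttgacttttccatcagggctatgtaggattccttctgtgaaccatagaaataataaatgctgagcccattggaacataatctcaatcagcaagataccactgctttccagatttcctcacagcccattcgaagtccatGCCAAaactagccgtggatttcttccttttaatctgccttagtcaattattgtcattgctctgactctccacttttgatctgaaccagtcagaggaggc
Grin2c, chr11:115267194-115267493, minus strand: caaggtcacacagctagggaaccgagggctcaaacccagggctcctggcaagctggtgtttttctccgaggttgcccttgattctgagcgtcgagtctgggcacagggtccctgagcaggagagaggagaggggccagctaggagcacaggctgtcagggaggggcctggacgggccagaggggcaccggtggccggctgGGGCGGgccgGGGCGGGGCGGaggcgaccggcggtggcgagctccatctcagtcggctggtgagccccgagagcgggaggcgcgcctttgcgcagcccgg
Gabra6 has 1 nuclear factor I site, read on the opposite strand as GCCAA, no GC box and 42% G and C. Grin2c has 3 GC boxes, no nuclear factor I site and 70.0% G and C. The nuclear factor I site occurs in 46.7% and the GC box in 35.7% of 32851 promoters of this length, so either match is frequent. A match describes the letters and not the binding of a factor.

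**Figure D3:**
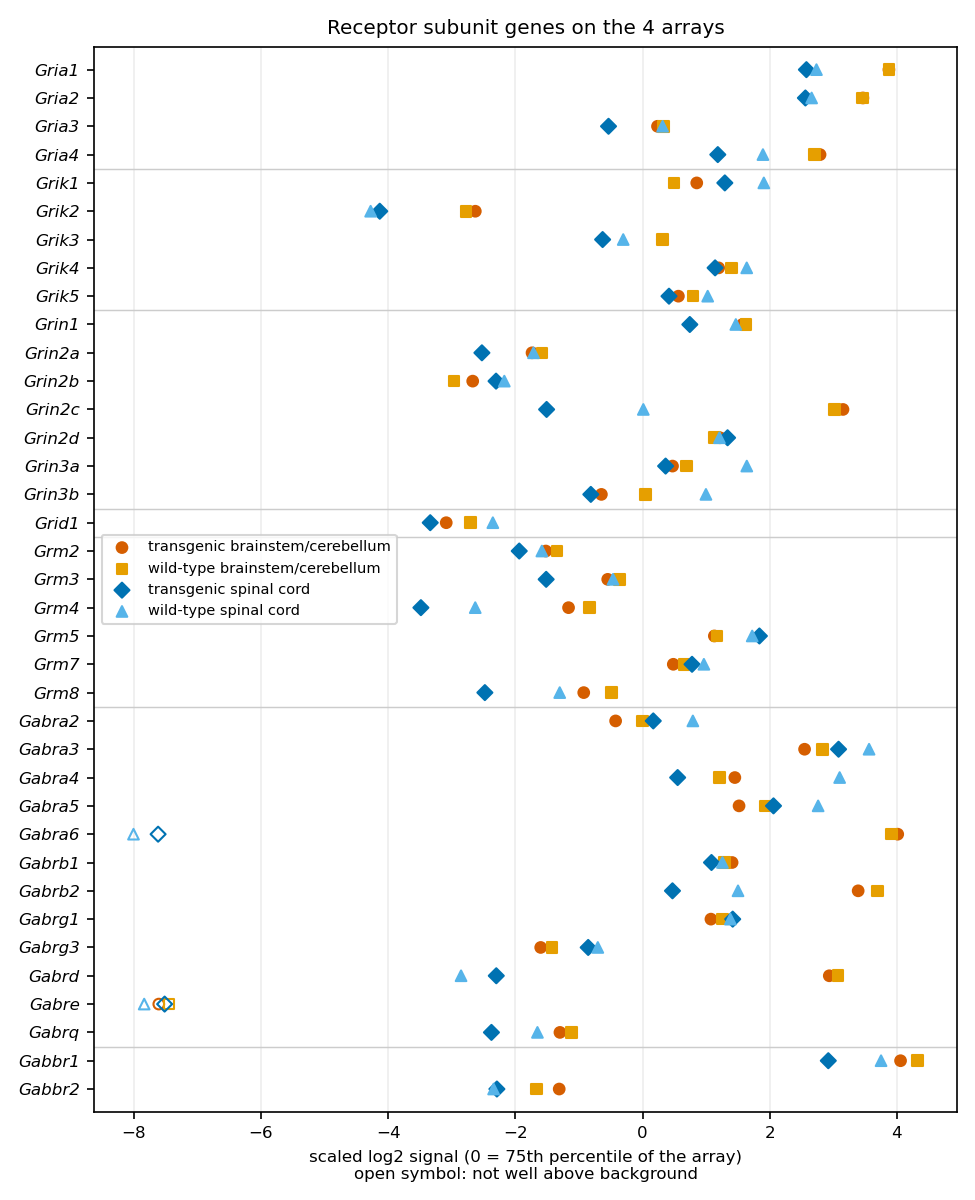
Scaled log2 signal (x axis, 0 at the 75th percentile of each array) of the brightest probe of each of the 37 receptor subunits on the 4 arrays, with open symbols where the probe was not well above background. Rows are read one by one, since probes of different genes are not comparable; Gabra6, Gabrd and Grin2c show the widest gaps between tissues, and Gabre has open symbols throughout.

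The 4 AMPA receptor genes, which encode the channels of fast excitation, showed no 2-fold difference between genotypes in either tissue. In brainstem/cerebellum they differed by -0.09 to 0.09. In spinal cord Gria1 differed by -0.16, Gria2 by -0.10, Gria3 by -0.85 and Gria4 by -0.71, with a median of -0.43. Gria1 was lower in spinal cord in both genotypes: it read 3.87 and 3.88 in Tg and WT brainstem/cerebellum and 2.58 and 2.73 in spinal cord. Gria4 read 2.79 and 2.70 in brainstem/cerebellum and 1.18 and 1.89 in spinal cord, and its tissue difference passed 2-fold in transgenic mice, at -1.61, but was -0.81 in wild-type mice. The 3 Gria4 probes gave spinal cord genotype differences of -0.68 to -0.74. Gria2 and Gria3 each had a dimmer probe to another transcript that read higher in transgenic spinal cord, by 0.92 and 2.04, and the Gria3 one gave 2.17 between tissues in transgenic mice.

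No kainate receptor gene differed by 2-fold between genotypes. In spinal cord Grik1 differed by -0.61, Grik5 by -0.61, Grik4 by -0.50, Grik3 by -0.32 and Grik2 by 0.14. In brainstem/cerebellum the 5 genes ranged from -0.23 to 0.36. Grik2, which encodes GluK2, was lower in spinal cord, at -4.13 and -4.28 on the transgenic and wild-type arrays against -2.63 and -2.78 in brainstem/cerebellum, a difference of -1.5 in both genotypes. With normexp background correction and quantile normalization it was -0.64 in wild-type mice. The second Grik2 probe, also to a RefSeq mRNA, gave -1.04 in wild-type and -0.66 in transgenic mice, so the transgenic call did not hold on it. Between genotypes it gave 0.76 in spinal cord. The third gave -0.87 in wild-type mice and a bound of -1.75 in transgenic mice.

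Grik1, which encodes GluK1, was called higher in wild-type spinal cord (1.41) by its brightest probe only. That probe is designed to a cDNA that is no RefSeq mRNA and read 0.85 and 0.50 in Tg and WT brainstem/cerebellum and 1.29 and 1.91 in spinal cord. The 3 other measured Grik1 probes are designed to RefSeq mRNAs and gave tissue differences of -1.0, -0.63 and -0.93 in wild-type mice, so the direction turned with the probe. In transgenic mice the brightest gave 0.44 and these 3 gave -1.38, -1.01 and -1.79. The first 30 of 60 bases of the brightest probe and of the next brightest are shown because they give opposite signs for the same gene symbol; the brightest lies at chr16:87935520-87935579 and the other spans chr16:87896544-87914404 (build mm9, per the file headers), and no letter is in capitals.
Grik1, probe A_55_P2731016 (wild-type tissue difference 1.41): cactgccccctctctggcctttatatttga
Grik1, probe A_55_P2805339 (wild-type tissue difference -1.0): gagcagtttctctctttcaatcccatcatg
An annotation of that build was not used here, so the exon or intron under each probe is not given.

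Among the NMDA receptor genes 3 of 7 fell in transgenic spinal cord, and none differed by 2-fold in brainstem/cerebellum. Of all gene names measured in spinal cord, 7.83% were lower and 7.82% higher. Grin2c fell by 1.52 on the log2 scale in spinal cord, from 0.01 in wild-type to -1.51 in transgenic tissue, and its second probe gave -1.95. Both Grin2c probes lie within chr11:115110483-115110730 (build mm9) and are designed to the RefSeq mRNA. In brainstem/cerebellum Grin2c differed by 0.14. The cerebellar granule cell markers had 1 of 7 measured members lower in transgenic spinal cord (Calb2, -1.22), 0 higher and a median of -0.51. Their summed level in spinal cord was only 17.4 in transgenic and 20.6 in wild-type tissue, against 135 and 139 in brainstem/cerebellum. Their part in the Grin2c value was not tested.

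Grin3a and Grin3b encode the GluN3 subunits, which bind glycine and lower the calcium flow of the channel, and GluN3B is known from motor neurons. Grin3b read -0.65 and 0.05 in Tg and WT brainstem/cerebellum and -0.81 and 1.0 in spinal cord. It was 3.51-fold lower in transgenic spinal cord and 1.62-fold lower in transgenic brainstem/cerebellum. Grin3a read 0.47, 0.69, 0.36 and 1.64 in the same order and was 2.42-fold lower in transgenic spinal cord. For both genes the wild-type spinal cord array stood alone, 0.95 above the next, while the other 3 arrays lay within 0.33 for Grin3a and 0.86 for Grin3b. Grin3a's call rests on 1 probe, since its 2 others were not well above background on any array, and the mean over all 3 was -0.36. The motor neuron markers had 1 of 6 measured members lower in transgenic spinal cord (Chodl, -2.04) and 0 higher, beside 7.83% and 7.82% of all gene names. Their median was -0.75 and their summed levels were 12.3 in transgenic and 22.1 in wild-type tissue, with Mnx1 well above background in wild-type spinal cord alone. In brainstem/cerebellum 1 of 6 was lower (Chodl, -1.55) and 0 were higher, beside 0.279% and 2.5% of all gene names. The median there was -0.68. A dimmer Chodl probe, well above background on 3 arrays, gave 0.25 in spinal cord and -1.21 in brainstem/cerebellum. The part of the motor neuron markers in the Grin3b value was not tested.

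The other NMDA genes were not called in a genotype comparison. Grin1, the subunit that every NMDA receptor holds, differed by -0.72 in spinal cord and -0.06 in brainstem/cerebellum, and Grin2a by -0.81 and -0.16. Grin2b differed by -0.13 and 0.30 and Grin2d by 0.13 and 0.09. Grin1 and Grin2a each had a probe to another transcript that gave -0.06 and -0.03 in spinal cord and wild-type tissue differences of -1.48 each, where the brightest probes gave -0.16 and -0.13. Grid1, a delta receptor subunit that links both sides of a synapse, lay just outside the threshold in spinal cord at -0.98, where Gabrb2 at -1.03 and Grm3 at -1.05 lay just inside it. In brainstem/cerebellum Grid1 differed by -0.38. These Grid1 values are from a probe to an Ensembl transcript. Its other probe, to the RefSeq mRNA, gave -0.46 in spinal cord and -0.26 in brainstem/cerebellum.

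Of the 6 metabotropic receptor genes, 2 fell in transgenic spinal cord, where 7.83% of all gene names measured were lower and 7.82% higher. None of the 6 passed 2-fold in brainstem/cerebellum, where they ranged from -0.44 to -0.04. Grm8, a presynaptic receptor that limits transmitter release, read -0.92 and -0.48 in Tg and WT brainstem/cerebellum and -2.48 and -1.30 in spinal cord. Its fall of 1.18 in spinal cord was matched by its second probe at -1.10. Grm3, a receptor of neurons and astrocytes with 1 probe, read -0.55, -0.36, -1.52 and -0.46 in the same order, so the transgenic spinal cord array was the lowest and the other 3 lay close together. Under normexp background correction followed by quantile normalization the spinal cord differences were -0.87 for Grm8 and -0.78 for Grm3 and did not pass 2-fold. Of 7 astrocyte markers 3 were lower and 1 higher in transgenic spinal cord, with a median of -0.74 and summed levels of 119 in transgenic and 104 in wild-type tissue. Of the 7, 4 lay below 0. Without Gfap, the one past 2-fold higher and picked for its high spinal cord level, the other 6 summed to 59.9 and 76.3. Gfap, at 1.08, had a dimmer probe at 0.40. Of the lower markers Gja1, at -1.81, had dimmer probes well above background on all 4 arrays at -0.43 and -0.41. Fgfr3, at -1.14, had one at -0.68, and Gjb6, at -1.19, had one at -1.11. The part of the astrocyte markers in the Grm3 value was not tested.

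Grm4, known from the granule cell terminals of the cerebellum, was lower in spinal cord in both genotypes, at -3.49 and -2.63 in Tg and WT spinal cord against -1.16 and -0.84 in brainstem/cerebellum. Its genotype difference was -0.85 in spinal cord and -0.32 in brainstem/cerebellum. Grm2 differed by -0.36 and -0.18, Grm7 by -0.19 and -0.17, and Grm5, which couples to calcium release, by 0.11 and -0.04. Grm8 was also lower in spinal cord than in brainstem/cerebellum in transgenic mice, at -1.55, while the wild-type difference was -0.82.

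Of the 12 GABA-A genes, 11 were measured in brainstem/cerebellum with no call and 10 in spinal cord, where 2 fell. The share of all gene names that were lower in transgenic spinal cord was 7.83%. Gabra4, the alpha 4 subunit of extrasynaptic receptors, had the largest genotype difference of all subunits: its brightest probe read 1.45 and 1.21 in Tg and WT brainstem/cerebellum and 0.55 and 3.10 in spinal cord. That is a fall of 2.55 in transgenic spinal cord (5.85-fold), and in wild-type mice it was 3.7-fold higher in spinal cord than in brainstem/cerebellum. The wild-type spinal cord array stood 1.65 above the next, while the other 3 arrays lay within 0.90. The second Gabra4 probe read 0.67, 0.92, -0.11 and 0.03 in the same order, with a genotype difference of -0.14 in spinal cord and a wild-type tissue difference of -0.89, so neither call held on it. The brightest probe is designed to an Ensembl transcript and the second to the RefSeq mRNA. They lie 83.9 kb apart, at chr5:72046554-72046613 and chr5:71962623-71962682 (build mm9), and the first 30 of their 60 bases are shown because the call depends on which of them is read.
Gabra4, probe A_55_P2732683 (spinal cord difference -2.55): gaggctctgtcttcccagaagggtttttaa
Gabra4, probe A_51_P393124 (spinal cord difference -0.14): ttggagcaagagaaatagagctaggagaga
The 2 sequences are given without capitals.

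Gabrb2, the beta 2 subunit of the most common synaptic GABA-A receptor, read 3.39 and 3.69 in Tg and WT brainstem/cerebellum and 0.47 and 1.5 in spinal cord. It was lower in spinal cord than in brainstem/cerebellum by 4.57-fold in wild-type and 7.57-fold in transgenic mice. Its genotype difference in spinal cord, -1.03, was at the edge of the threshold: it was between -0.60 and -1.39 over 9 alternatives and passed 2-fold in 5 of them. Of these 5, median and spike-in scaling also lowered the median of all gene names. The others read the same probe on the main scale, so their value was fixed at -1.03. It did not pass with quantile normalization (alone or after normexp), the authors' deposited values or the mean over probes. The second probe, which is dimmer, gave -0.29.

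Gabra2, Gabra3 and Gabra5 read highest in wild-type spinal cord. Gabra5, the alpha 5 subunit, differed by -0.70 between genotypes in spinal cord and -0.41 in brainstem/cerebellum, Gabra2 by -0.62 and -0.42, and Gabra3 by -0.48 and -0.28. For Gabra2 the other 3 probes, all to other transcripts, gave -0.37, -1.12 and -1.75 in spinal cord, 2 of them past 2-fold. Gabra6 differed by 0.10 in brainstem/cerebellum. Gabrd was 0.55 higher in transgenic spinal cord, below the threshold and on a dim probe with a technical SD of 0.24, and differed by -0.14 in brainstem/cerebellum. Gabrb1 differed by -0.17 and 0.12, Gabrg1 by 0.04 and -0.19, and Gabrg3 by -0.15 and -0.18, with a dimmer Gabrg3 probe at 0.86 in spinal cord. The remaining 2 Gabrg3 probes were well above background on 1 spinal cord array each and gave bounds of -1.05 (RefSeq mRNA) and 1.78. Gabrq, the theta subunit, differed by -0.72 and -0.18, and its tissue difference of -1.08 in transgenic mice was past 2-fold. That call did not hold with normexp and quantile normalization. The mean over the Gabrq probes was -0.66, but the other probe was well above background on no array, so this mean cannot test the call. The single probe of Gabre was well above background on none of the 4 arrays.

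The 2 GABA-B genes encode the partners of a single receptor, Gabbr1 binding GABA and Gabbr2 coupling to the G protein. Neither was called between genotypes: Gabbr1 differed by -0.83 in spinal cord and -0.27 in brainstem/cerebellum, and Gabbr2 by 0.05 and 0.36. Gabbr1 read 4.06 and 4.33 in Tg and WT brainstem/cerebellum and 2.92 and 3.75 in spinal cord, so it was past 2-fold between tissues in transgenic mice (-1.14) and not in wild-type mice (-0.58). With the mean over its 4 probes the transgenic value was -0.66. Of the dimmer Gabbr1 probes, those well above background on all 4 arrays gave -0.51 and -0.64. The remaining one was so on 1 array. Gabbr2 read -1.31, -1.67, -2.29 and -2.34 in the same order.

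**Figure D4:**
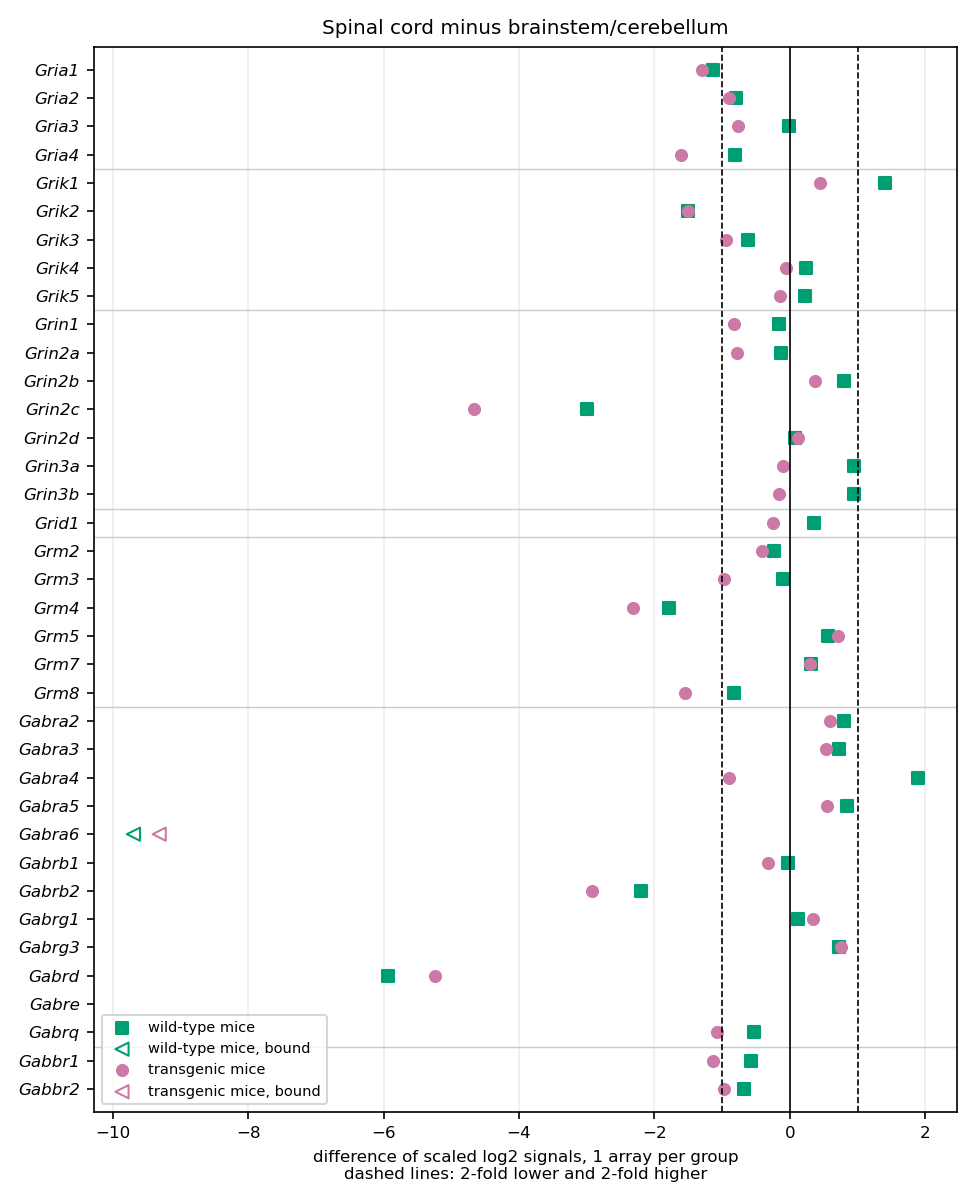
Spinal cord minus brainstem/cerebellum for each receptor subunit, as the difference of scaled log2 signals (x axis), in wild-type (green squares) and transgenic (pink circles) mice, with 1 array per group and dashed lines at a 2-fold difference. Open triangles are the bounds of Gabra6 (-9.69 and -9.31), and Gabrd, Grin2c, Gabrb2, Grm4, Grik2 and Gria1 lie past 2-fold lower in both genotypes.

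Over the 35 subunits measured on all 4 arrays, transgenic spinal cord was the lowest array for 22 (62.9%), where it was the lowest for 36.7% of all gene names. Wild-type spinal cord was the highest for 13 (37.1%), against 29.7% of all gene names. The calls in spinal cord take several forms. For Grin3a, Grin3b and Gabra4 the wild-type array stood above the other 3, and for Grm3 the transgenic array stood below them. For Grin2c, Grm8 and Gabrb2 both spinal cord arrays lay below both brainstem/cerebellum arrays, with the transgenic one lowest.

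Probes of 1 subunit do not always agree. Of 91 probes, 67 could be measured in the spinal cord comparison. In transgenic tissue 12 of them were past 2-fold lower and 1, a dim Gria3 probe, was past 2-fold higher. Among probes to RefSeq mRNAs 8 of 51 were lower, 0 were higher and the median was -0.48. Among probes to other transcripts 4 of 16 were lower, 1 was higher and the median was -0.33. With the brightest RefSeq mRNA probe standing for each gene, 6 of 34 subunits were lower, the median was -0.49, and over all gene names 8.63% were higher and 5.53% lower. Of 21 subunits with several measured probes, 18 had all of them on the same side of 0. The dimmer RefSeq probe of Grik5, for example, read -1.40 where the brightest read -0.61. Shares over all probes of the array were not computed. The counts of probes and of subunits with agreeing probes thus have no background here.

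**Figure D5:**
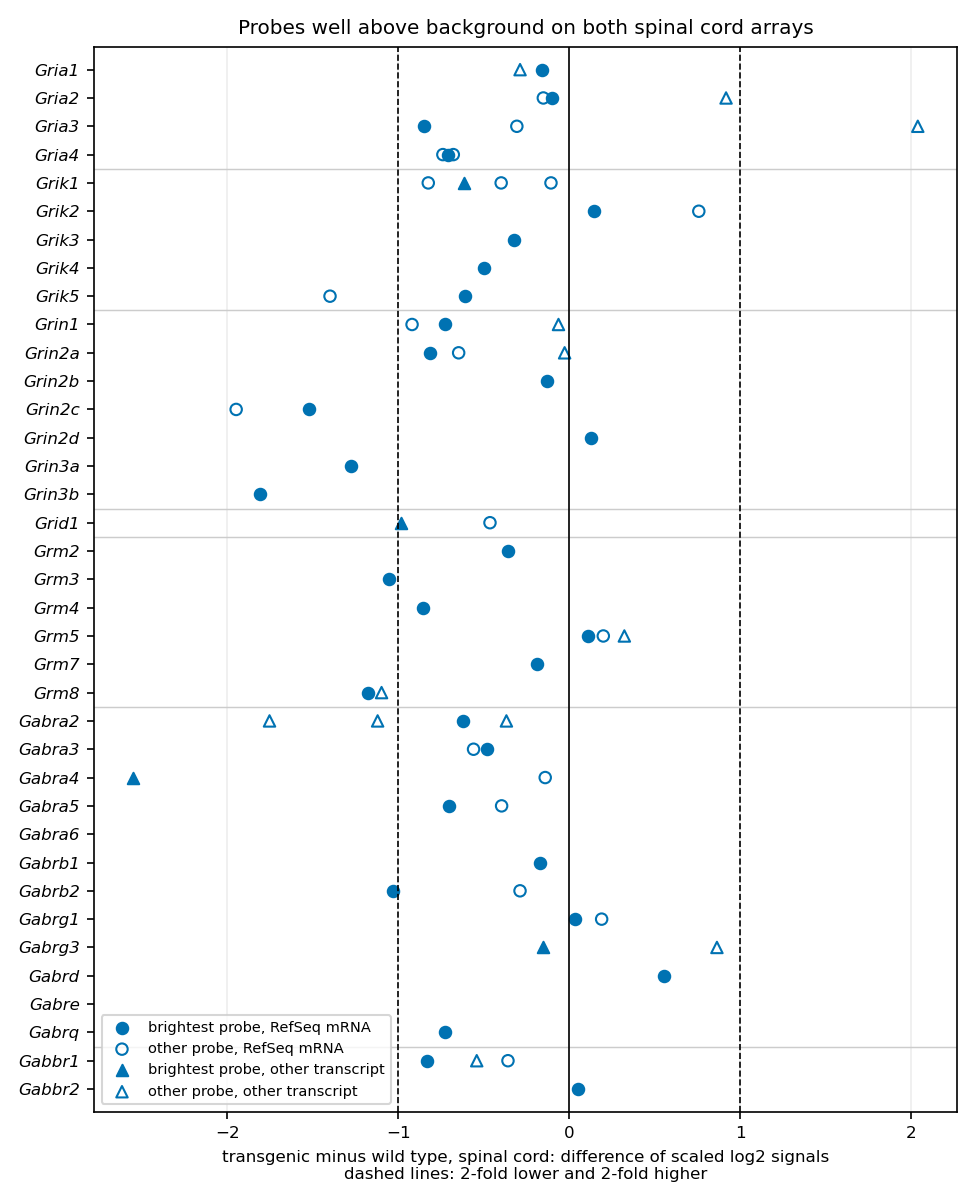
Transgenic minus wild type in spinal cord (x axis, difference of scaled log2 signals) for every receptor subunit probe well above background on both arrays, with filled symbols for the brightest probe of a gene, circles for probes to RefSeq mRNAs and triangles for probes to other transcripts. The 2 Gabra4 probes lie at -2.55 and -0.14, and the 2 Grin2c probes at -1.52 and -1.95.

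The genes that hold, anchor and supply these receptors were described in 3 lists. Beside them, 7.83% of all gene names measured were lower and 7.82% higher in transgenic spinal cord. In brainstem/cerebellum these shares were 0.279% and 2.5%. Of 15 auxiliary subunit genes, which traffic AMPA, kainate and GABA-A receptors, none changed by 2-fold between genotypes; the medians were -0.22 in brainstem/cerebellum and -0.17 in spinal cord, and Gsg1l had the largest spinal cord difference at -0.99. Of 19 scaffold genes 3 fell and 0 rose in transgenic spinal cord, with a median of -0.38. Among them were Grip2, an AMPA receptor anchor, at -1.27 and the adhesion gene Nlgn1 at -1.11. In brainstem/cerebellum 0 of 19 were past 2-fold. Of the genes of transmitter synthesis and transport, 2 of 14 measured fell in transgenic spinal cord and the median was -0.63. Slc6a11, a GABA transporter of astrocytes, read 0.25 and 1.31 in Tg and WT brainstem/cerebellum and -0.85 and 1.26 in spinal cord, a difference of -1.05 and -2.11. It was the 1 of 15 past 2-fold in brainstem/cerebellum. Slc17a8, a vesicular glutamate transporter, fell by 1.44 in spinal cord. Slc17a7, the vesicular transporter of granule cell terminals, was well above background on 3 arrays and not on the transgenic spinal cord array, and its spinal cord difference has no bound past 2-fold.

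Markers of neurons and of other cells moved in the same samples. Their counts stand beside 7.83% of all gene names lower and 7.82% higher in transgenic spinal cord. For brainstem/cerebellum the shares were 0.279% lower and 2.5% higher. Of 11 pan-neuronal markers 2 were at least 2-fold lower in transgenic spinal cord, Nefm at -1.35 and Nefl at -1.15, all 11 lay below 0, and the median was -0.58, beside -0.61 for the receptor subunits. Their summed level was 316 in transgenic and 544 in wild-type spinal cord and 367 and 425 in brainstem/cerebellum, where 0 of 11 were past 2-fold and the median was -0.24. Of 8 microglia and macrophage markers 4 were higher in transgenic spinal cord, led by Cd68 at 3.73, and 2 in brainstem/cerebellum, with summed levels of 152 and 73.2 in transgenic and wild-type spinal cord and 60.4 and 42.7 in brainstem/cerebellum. Of 5 oligodendrocyte precursor markers 3 were higher in transgenic spinal cord, with summed levels of 45.6 and 30.7, and of 7 oligodendrocyte markers 0 were past 2-fold, with a median of 0.18. Of 4 measured genes of the peripheral myelin and ganglion list 2 were lower in transgenic spinal cord, Prx at -1.74 among them, while Pmp22 differed by 0.28. That list summed to 44.6 and 56.1, and Scn10a of sensory ganglia was not well above background on any array. The skeletal muscle list summed to 1.11 in transgenic and 2.09 in wild-type spinal cord. The part of these cell types in the receptor differences was not tested.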

How the data were processed

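Each deposited scanner file holds the linear intensity of every spot. Per the file headers, Agilent Feature Extraction 10.7.1.1 made them, while 9.5.1.1 is the version in the submitters' processing notes. Per the file headers, the authors' processed intensity was background-subtracted and detrended within each array, with no scaling between arrays. The authors' deposited value table also holds intensity values, with normalization not given in the sources used here. Its columns had the same median (30.4) and tracked quantile-normalized processed signals (Pearson's r of 0.99865 or more across probes), which gives scale and direction; it served as an alternative.

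Control and outlier spots were left out, and log2 processed signals were scaled on the 75th percentile of each array (Python 3.11.15, pandas 2.3.3; R 4.3.3 and limma 3.58.1 for quantile and normexp). Spike-in control spots entered the technical SD and the spike-in scaling only. Spots of a probe were averaged, and the probe brightest over the 4 arrays stood for a gene, under the gene name in the file. The scaling and the 2-fold cut were tested on simulated data, for probes above the 75th percentile. The brightest-probe rule, the background filter and the bounds were not tested in this way. The 37 members and 16 lists were chosen with earlier results of these data known. Every member is named; of other lists, up to 4 members with the largest genotype difference, besides Slc17a7, Scn10a, Mnx1 and the markers of a tissue check, chosen after their values were seen. Alternatives were other scalings (median, spike-in probes), quantile normalization (alone and after normexp, offset 50), 2 other rules for dim probes, the mean over probes and a 1.5-fold threshold. The use of RefSeq mRNA probes alone was added after seeing the data. Per the labels, groups follow genotype and tissue, and 1 array per group limits the precision. Some genes that this rule or a list names are not reported here.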

Additional observations from a re-analysis of the deposited data

Results flagged for a closer look

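For 5 receptor subunits the transgenic minus wild type difference had opposite signs in the tissues, each beyond the technical SD of a difference between spots. The share of all gene names that meet this rule was not computed, so the 5 have no background here. Gabrb1 met it narrowly, at -0.17 in spinal cord and 0.12 in brainstem/cerebellum beside an SD of 0.10. The spinal cord difference minus the brainstem/cerebellum difference was -2.79 for Gabra4, -1.66 for Grin2c, -0.97 for Grik1, -0.29 for Gabrb1 and 0.69 for Gabrd. With 1 array per group the difference between tissues was not tested. For Gabra4 the second probe had the same sign in both tissues (-0.24 and -0.14), while for Grin2c the second probe gave 0.18 in brainstem/cerebellum and -1.95 in spinal cord. The measured RefSeq mRNA probes of Grik1 gave 0.27, -0.02 and 0.04 in brainstem/cerebellum and -0.11, -0.40 and -0.82 in spinal cord. Gabrd alone of the 5 was higher in transgenic spinal cord. The spinal cord comparison crosses slides and the brainstem/cerebellum comparison does not, so slide and tissue cannot be told apart in these values.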

How the results depend on the processing

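No paired analysis was possible because each group has 1 array, and the slide as a block was not run because a comparison of 2 arrays leaves it no degrees of freedom. Of the counts and medians of called subunits, 94 values stayed within 1.5 times (medians, within the spot error) and 22 moved. Scaling on the median put the median difference at -0.35 in brainstem/cerebellum and -0.17 for wild-type tissues. Spike-in scaling gave 16 subunits lower and a median of -0.98 in spinal cord, 4 higher in wild-type tissues, and 18 lower with a median of -1.12 in transgenic tissues. Normexp with quantile normalization gave 4 lower and a median of -0.48 in spinal cord and a median of -0.46 in transgenic tissues. The mean over probes also takes in probes not well above background, as for Grik1, Gabrb2 and Gabrq. It gave a median of -0.32 in spinal cord and 1 higher in wild-type tissues, where 7.35% of all gene names were higher. In transgenic tissues it gave 1 higher (8.27% of all gene names higher) with a median of -0.66. RefSeq mRNA probes alone gave a median of -0.49 in spinal cord and 0 higher in wild-type tissues, where 5.9% of all gene names were higher. The wild-type tissue difference of Grik1 reversed to -0.54 with the mean over probes and to -1.0 with RefSeq mRNA probes, which also reversed that of Gabra4 to -0.89. At 1.5-fold, 1 subunit was lower in brainstem/cerebellum, 19 in spinal cord, 11 in wild-type and 18 in transgenic tissues (all gene names: 2.36%, 19.4%, 11.2% and 14.9%), and 9 and 3 were higher in wild-type and transgenic tissues (17.9% and 17.8%). Over all gene names normexp with quantile normalization gave 4.61% higher and 3.9% lower in spinal cord. Dim probes limit Grik2, Gabrd and Grid1, and Gabre gives no value.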
